A study of Homo sapiens with 31 samples.

Results

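Acute-phase and innate secreted genes that C/EBP factors are known to drive were followed across 4 groups of libraries from cell lines studied as ovarian cancer. The 10 genes were SAA1, SAA2, LCN2, HP, ORM1, C3, PTX3, CFB, SLPI and PI3, picked by name from what is known of their control, and each was found among the 19221 genes of the expression table. C13* is a cisplatin-resistant line that the study used as an ovarian cancer line, though it questioned this use given the line's origin. The C13* libraries came from cells with a control shRNA (C13* shCON, n = 7) or with a lentiviral shRNA against CEBPB, the gene of C/EBPβ (C13* shCEBPB, n = 8). A2780 is an ovarian cancer line that was sequenced as the parent line (A2780, n = 8) and as a strain kept in rising olaparib, a PARP inhibitor, until it was resistant (A2780 OlaR, n = 8). The study asked which genes change after C/EBPβ knockdown in C13* and with olaparib resistance in A2780. The methods speak of resistant clones for A2780 OlaR without giving their number, and whether the shRNA lines were clones or pools is not given in the sources used here. The study calls its libraries biological replicates without saying that they came from separate cultures, so that p-values measure the spread between these libraries, which may be technical. The values were FPKM, fragments on a gene scaled to its length and to the fragments of its library, so that levels of different genes can be set side by side.

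Acute-phase proteins are secreted in large amounts during infection or injury. The liver is their main source, but epithelia and tumor cells make many of them as well. The inflammatory cytokine IL6 signals through JAK kinases to STAT3, and IL1 signals through MYD88 to NF-kB. Both pathways meet C/EBPβ and C/EBPδ at the promoters of these genes. C/EBPβ was first known as a nuclear factor for IL6 expression. SAA1 and SAA2 are apolipoproteins of HDL, LCN2 withholds bacterial siderophores, HP binds free hemoglobin and ORM1 carries lipophilic compounds in plasma. PTX3 is a soluble pattern recognition molecule, C3 and CFB build the C3 convertase of the alternative complement pathway, and SLPI and PI3 (elafin) inhibit neutrophil proteases.

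The libraries were compared with each other before any result was drawn from their labels. Over the 12967 genes expressed in at least 1 group, the mean levels of C13* shCON and A2780 OlaR had a Pearson's r of 0.993 across genes, and 69 genes (0.532%) differed by at least 1 on the log2(FPKM + 1) scale. Between A2780 OlaR and A2780, r was 0.709 and 34.8% of the genes differed by that much. Between C13* shCEBPB and C13* shCON, r was 0.792 and 27.7% did. The libraries labelled A2780 OlaR were thus closer to those labelled C13* shCON than to their labelled parent line. In 1 shCON library (replicate 1) a single label field gives A2780 as the cell line, while its title gives C13*. The cell background therefore cannot be told apart from the shRNA or from olaparib resistance, and group names are used here as labels. The share of all tested genes that passed the test was 84.7% between shCEBPB and shCON and 89.8% between OlaR and A2780, so that a passing gene was the rule. Marker genes differed between the groups as well. The summed level of 5 squamous epithelial markers (KRT5, KRT14, TP63, KRT6A and SFN) lay between 2523 and 3072 FPKM in shCON, between 85.2 and 172 in shCEBPB, between 0.417 and 1.87 in A2780 and between 2545 and 3348 in A2780 OlaR. KRT5 was at 0 in every A2780 library. Of 5 ovarian markers, WT1 and MUC16 had means under 1 FPKM in all 4 groups, and PAX8 was at 6.10 in shCON, 0.536 in shCEBPB, 0.555 in A2780 and 6 in A2780 OlaR. FOLR1 and MSLN were highest in shCEBPB, with FOLR1 at 1.198 FPKM in shCON, 887 in shCEBPB, 13.3 in A2780 and 0.910 in A2780 OlaR, and MSLN at 30.7, 154, 3.15 and 25.8. The sum of the 5 ovarian markers lay between 35.7 and 41.9 FPKM in shCON, 996 and 1102 in shCEBPB, 14.9 and 18.5 in A2780 and 27.1 and 38.6 in A2780 OlaR. Among 5 epithelial and mesenchymal markers, CDH1 and EPCAM were high in shCON (82.9 and 111 FPKM) and A2780 OlaR (99.5 and 116) and low in shCEBPB (0.655 and 0.567) and A2780 (0.0280 and 1.202). The mesenchymal gene VIM was at 342 FPKM in shCEBPB and 809 in A2780, and it set shCON (9.82) apart from A2780 OlaR (0.160). The sum of these 5 markers, which also held KRT19 and CDH2, lay between 1611 and 1804 FPKM in shCON, 337 and 366 in shCEBPB, 844 and 886 in A2780 and 1842 and 2247 in A2780 OlaR. None of the 6 hepatocyte markers reached a mean of 1 FPKM, their sum was at most 0.499 in any library, and APOH and TTR were listed at 0 throughout. Of 6 leukocyte markers, CD68 was above 1 FPKM in each group and PTPRC only in A2780, and CD3E was listed at 0 throughout. Their sum lay between 62.9 and 70.5 FPKM in shCON, 10.7 and 13.3 in shCEBPB, 79.1 and 104.5 in A2780 and 37.8 and 45.8 in A2780 OlaR. The sum of 5 fibroblast markers lay between 3.03 and 3.65 FPKM in shCON, 15.4 and 23.2 in shCEBPB, 35.6 and 38.4 in A2780 and 3.71 and 5.16 in A2780 OlaR, with LUM listed at 0 in all groups but A2780. The part of these marker differences in the results below was not tested. FPKM give no read totals. The steps between low values gave a depth of each library relative to the others of 0.865 to 1.23, and the deepest library had 1.42 times the depth of the shallowest.

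Promoter sequences from RefSeq (GRCh38.p14, which is hg38) were matched for 4 of the 10 genes (LCN2, ORM1, PTX3 and CFB) and not for SAA1, SAA2, HP, C3, SLPI and PI3. LCN2 and CFB are shown because both were called in both comparisons, and PTX3, chosen after its values were seen, because its levels ran against theirs in the A2780 comparison. Each window holds the 250 bases before the RefSeq start, on the plus strand, at chr9:128149203-128149452 for LCN2, chr6:31945845-31946094 for CFB and chr3:157436600-157436849 for PTX3. GENCODE places the starts of LCN2 and CFB farther upstream, so that these windows lie inside its gene spans. Capitals mark matches to the C/EBP motif TTGCNNAA, the STAT motif TTCNNNGAA, the AP-1 motif TGANTCA and the NF-kB consensus, each searched on both strands.
LCN2: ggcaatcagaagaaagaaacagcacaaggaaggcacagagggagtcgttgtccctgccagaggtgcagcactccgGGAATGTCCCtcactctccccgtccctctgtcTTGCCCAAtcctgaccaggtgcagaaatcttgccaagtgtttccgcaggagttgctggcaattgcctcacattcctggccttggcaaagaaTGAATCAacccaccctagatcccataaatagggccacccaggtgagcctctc
CFB: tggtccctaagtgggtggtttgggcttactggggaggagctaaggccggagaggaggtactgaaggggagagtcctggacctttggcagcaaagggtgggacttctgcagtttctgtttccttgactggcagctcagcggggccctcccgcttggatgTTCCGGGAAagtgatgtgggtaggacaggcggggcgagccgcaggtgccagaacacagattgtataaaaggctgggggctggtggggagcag
PTX3: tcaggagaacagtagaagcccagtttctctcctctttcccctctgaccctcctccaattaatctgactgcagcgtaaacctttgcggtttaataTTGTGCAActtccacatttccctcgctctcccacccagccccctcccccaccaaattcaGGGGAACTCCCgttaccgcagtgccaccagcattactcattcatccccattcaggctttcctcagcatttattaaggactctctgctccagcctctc
The LCN2 window held a C/EBP match from 143 to 136 bases before the start, an AP-1 match from 52 to 46 and an NF-kB match from 175 to 166. The PTX3 window held a C/EBP match from 156 to 149 bases before the start and overlapping NF-kB matches from 97 to 87. The CFB window held a STAT match from 92 to 84 bases before the start and no match to the other motifs, and the ORM1 window held none of the 4. Among 35116 RefSeq promoters of this length, 9.05% held the C/EBP motif, 6.57% the STAT motif, 6.57% the AP-1 motif and 5.21% the NF-kB motif. A match says that these letters are present and nothing about binding.

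CEBPB, the target of the shRNA, lies on chromosome 20 (50190830 to 50192668, hg38) and was lower in shCEBPB than in shCON, but not absent. In shCON its lowest, median and highest levels were 75.2, 85.4 and 101 FPKM, and in shCEBPB they were 30.2, 49.5 and 58.7. The groups did not overlap, and the shCEBPB mean of 47.1 ± 9.05 FPKM (SD, n = 8) was 0.549 times the shCON mean of 85.8 ± 9.93 (SD, n = 7; log2 difference -0.87, standard error 0.11, adjusted p = 1.42e-06, limma). Within shCEBPB the libraries with codes 1 to 3 had a mean of 37.8 FPKM and those with codes 4 to 8 a mean of 52.8, without overlap. CEBPB shares 231 bp of its exon with an antisense gene, and whether counting used the strand is not given in the sources used here. A2780 had a mean of 99.7 ± 7.63 FPKM (SD, n = 8), against 112 ± 11.6 (SD, n = 8) for A2780 OlaR, a log2 difference of 0.16 (standard error 0.06, adjusted p = 0.0202, limma) with groups that overlapped. CEBPA, which encodes the C/EBP factor of differentiated hepatocytes and granulocytes, was higher in shCEBPB, with a mean of 18.7 ± 7.12 FPKM (SD, n = 8) against 2.90 ± 0.573 (SD, n = 7; log2 difference 2.26, adjusted p = 5.73e-09, limma). Here too the shCEBPB libraries with codes 1 to 3 (mean 11.4 FPKM) and with codes 4 to 8 (23.0) did not overlap. CEBPD, the C/EBP gene most responsive to acute-phase signals, varied little, with means between 44.1 and 49.9 FPKM in the 4 groups. It was called lower in shCEBPB (log2 difference -0.17, adjusted p = 0.0262, limma) and not called in OlaR (-0.01, adjusted p = 0.847, limma). CEBPG and DDIT3, whose products pair with other C/EBP factors, were both lower in shCEBPB than in shCON (log2 differences -0.66 and -1.21) and lower in OlaR than in A2780 (-1.83 and -2.17). The mean of CEBPE, a granulocyte gene, was at most 0.0608 FPKM in any group.

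**Figure D1:**
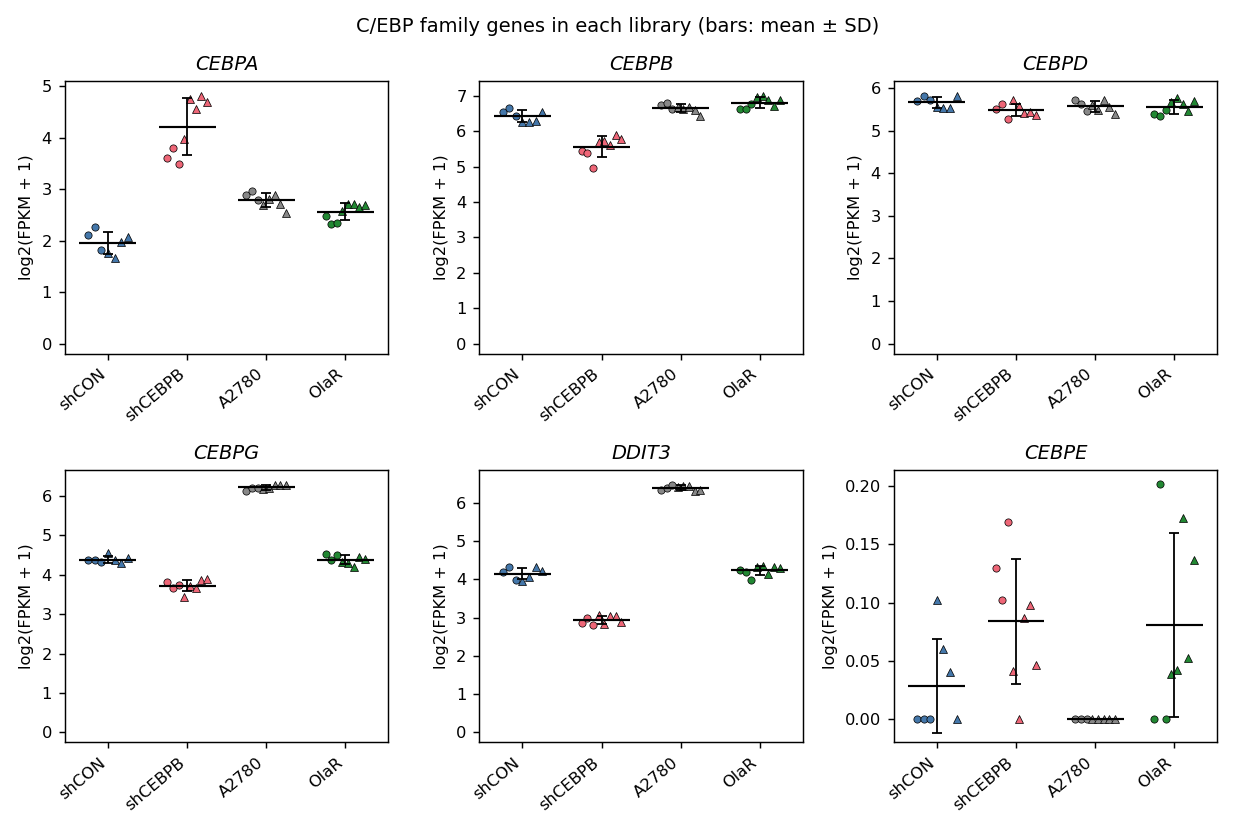
Levels of the 6 C/EBP family genes in each library as log2(FPKM + 1) on the vertical axis, by group, with circles for library codes 1 to 3, triangles for codes 4 to 8, and bars for the mean ± SD. The shCEBPB libraries were the lowest in CEBPB (30.2 to 58.7 FPKM) and the highest in CEBPA.

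The summed level of the 10 genes (mean ± SD) was 71.4 ± 6.98 FPKM in shCON (n = 7), 199 ± 18.4 in shCEBPB (n = 8), 8.15 ± 0.523 in A2780 (n = 8) and 77.9 ± 3.47 in A2780 OlaR (n = 8). The make-up of this sum changed as well as its size. SLPI gave 49.8% of it in shCON and LCN2 26.8%. In shCEBPB, C3 gave 59.7% and SLPI 34.5%. PTX3 gave 52.4% in A2780, with C3 at 33.6%, and in A2780 OlaR the leading genes were again SLPI (47.8%) and LCN2 (32.3%). A mean of at least 1 FPKM was reached by 6 of the 10 genes in shCON and in A2780 OlaR, by 4 in shCEBPB and by 2 in A2780.

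**Figure D2:**
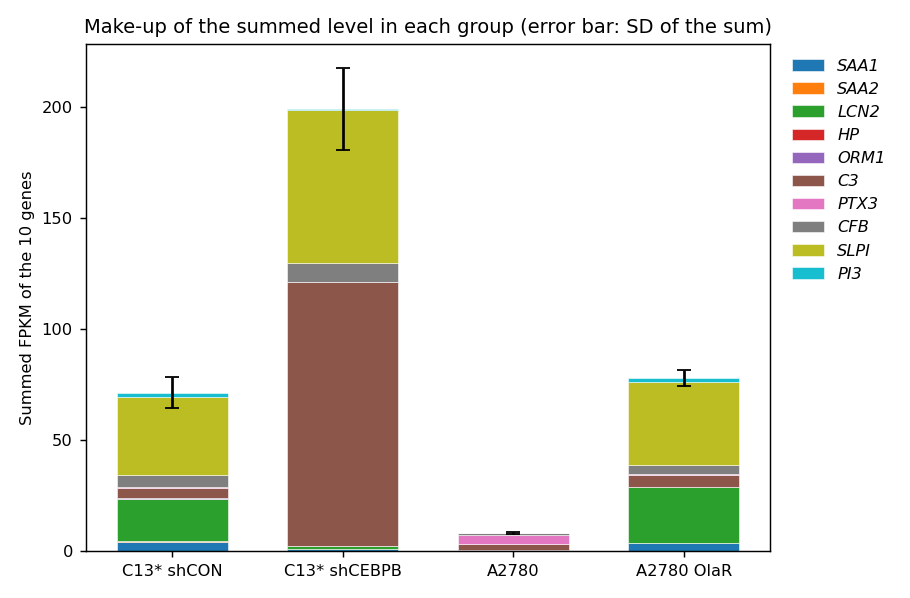
Summed FPKM of the 10 genes in each group (vertical axis), stacked by the mean of each gene, with the SD of the sum over libraries as the error bar. C3 is the largest block in shCEBPB, SLPI in shCON and A2780 OlaR, and PTX3 in A2780.

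Between shCEBPB and shCON, LCN2, SAA1 and PI3 were lower in shCEBPB, whereas C3, SLPI and CFB were higher. These 6 genes met the condition for the test, which was 1 FPKM or more in 7 or more libraries, and all 6 were called at an adjusted p under 0.05, where 84.7% of all 12006 tested genes were called (38.9% higher and 45.7% lower). In 5 of them, all but PI3, no library of one group lay within the range of the other, as in 66% of all tested genes (29.3% higher and 36.7% lower). SAA1 and PI3 met the condition only through the shCON libraries and so had to differ, and the other 4 met it in both groups. The median log2 difference of all tested genes was -0.07. Without shCON replicate 1, the library with the conflicting label, the log2 differences were -3.04 for LCN2, -1.46 for SAA1, -0.78 for PI3, 4.32 for C3, 0.90 for SLPI and 0.63 for CFB, and all 6 were called. SAA2, HP, ORM1 and PTX3 were too low for this test. Between A2780 OlaR and A2780, SAA1, LCN2, SLPI, CFB and C3 were higher in OlaR and PTX3 was lower. All 6 genes tested were called, where 89.8% of 12458 genes were (40.1% higher and 49.7% lower), and the median difference of all tested genes was -0.12. None of the 6 overlapped between the groups, as in 74.1% of all tested genes (32.8% higher and 41.3% lower). C3 alone met the condition in both groups, and the other 5 met it through the group in which they were high. SAA2, HP, ORM1 and PI3 were not tested. The members called in opposite directions in the comparisons, lower in shCEBPB and higher in OlaR, were SAA1 and LCN2, where 26.1% of the 11603 genes tested in both had this pattern. C3, CFB and SLPI were higher in both, a pattern of 10.6% of those genes.

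**Figure D3:**
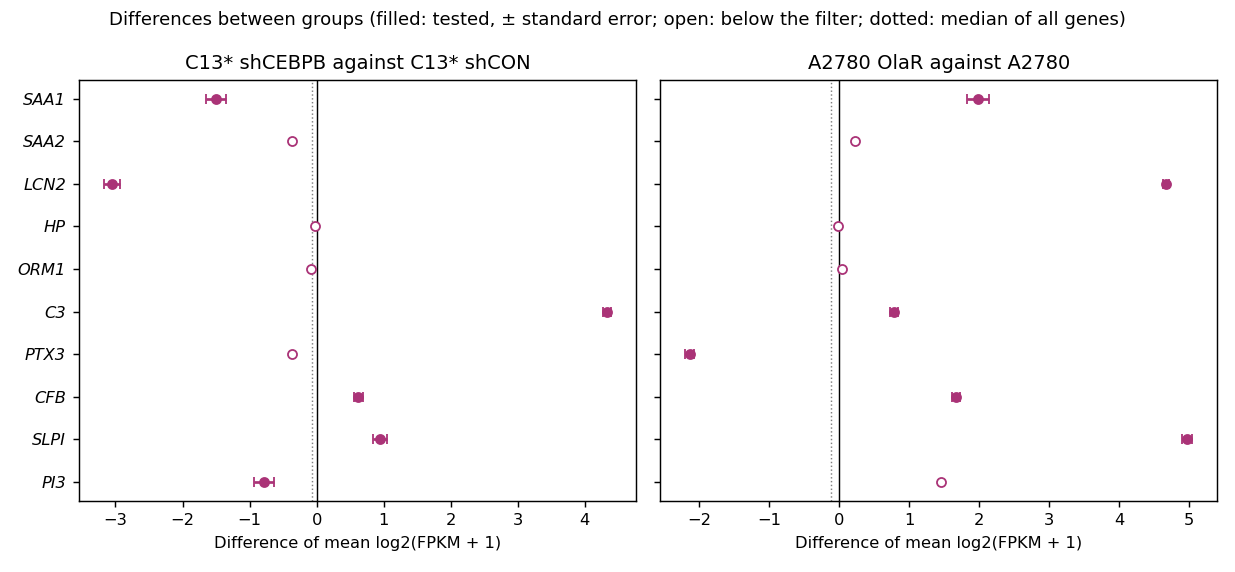
Difference of mean log2(FPKM + 1) of each gene, shCEBPB minus shCON (left) and A2780 OlaR minus A2780 (right). Filled points were tested and carry ± the standard error, open points were too low for the test, and the dotted line is the median of all tested genes (-0.07 and -0.12). C3 lies farthest to the right on the left side (4.33), and SLPI (4.97) and LCN2 (4.67) on the right side.

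SAA1 lies on chromosome 11 (18266260 to 18269977, plus strand) and encodes serum amyloid A, which can rise more than most other plasma proteins in an acute-phase response. Its lowest, median and highest levels were 2.53, 4.03 and 5.52 FPKM in shCON and 0.414, 0.703 and 1.90 in shCEBPB. The groups did not overlap. The mean was 4.07 ± 1.04 FPKM in shCON (SD, n = 7) and 0.808 ± 0.478 in shCEBPB (SD, n = 8), with a log2 difference of -1.50 (standard error 0.15, adjusted p = 3.34e-08, limma). In A2780 the levels were 0, 0.0722 and 0.186 FPKM and in A2780 OlaR they were 1.56, 3.22 and 5.999. Every OlaR library was above every A2780 library (log2 difference 1.98, standard error 0.16, adjusted p = 3.61e-10, limma). OlaR libraries with codes 1 to 3 had a mean of 2.15 FPKM and those with codes 4 to 8 a mean of 4.19, with overlap. SAA2 lies next to it on chromosome 11 (18239223 to 18248668, minus strand) and encodes a near-identical protein, so that reads may have been split between the paralogs in a way the sources used here do not state. SAA2 also shares 267 bp of its exons with the readthrough gene SAA2-SAA4. Its levels were 0.0887, 0.363 and 0.559 FPKM in shCON and 0, 0.0376 and 0.194 in shCEBPB, with overlap (two-sided exact permutation p = 0.00124). They were 0, 0 and 0.0820 in A2780, where 7 of 8 libraries were listed at 0, and 0.0868, 0.176 and 0.274 in A2780 OlaR, without overlap (two-sided exact permutation p = 0.000155, which is the smallest that 8 against 8 libraries can give). Of the non-zero SAA2 values, 23.8% were whole multiples of a read step (within 0.1 step), against 100% for ORM1.

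LCN2 (chromosome 9, 128149071 to 128153453, plus strand) encodes lipocalin 2, an antimicrobial protein of neutrophil granules and inflamed epithelia. It was at 16.3, 19.6 and 20.9 FPKM (lowest, median, highest) in shCON and 0.823, 1.32 and 2.67 in shCEBPB. The groups were far apart, with means of 19.1 ± 1.62 FPKM (SD, n = 7) and 1.47 ± 0.589 (SD, n = 8), a 13-fold lower mean in shCEBPB (log2 difference -3.06, standard error 0.12, adjusted p = 2.83e-14, limma). Within shCEBPB the libraries with codes 1 to 3 had a mean of 2.03 FPKM and those with codes 4 to 8 a mean of 1.13, without overlap. The log2 difference was -2.75 within codes 1 to 3 and -3.23 within codes 4 to 8. In A2780, 5 of 8 libraries were listed at 0 and the highest was at 0.129 FPKM. In A2780 OlaR the levels were 22.7, 25.9 and 27.2 FPKM, with a mean of 25.2 ± 1.81 (SD, n = 8; log2 difference 4.67, standard error 0.05, adjusted p = 8.42e-25, limma). Every OlaR library was above every A2780 library. The LCN2 promoter shown above was the window with matches to 3 of the 4 motifs.

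PTX3 (chromosome 3, 157436850 to 157443633, plus strand) encodes a long pentraxin that is made at sites of inflammation rather than in the liver. It was the member that was high in the A2780 parent line. Its lowest, median and highest levels were 3.39, 4.52 and 4.83 FPKM in A2780 and 0.0709, 0.204 and 0.285 in A2780 OlaR. The mean was 22.1-fold lower in OlaR, at 0.193 ± 0.0728 FPKM (SD, n = 8) against 4.27 ± 0.569 (SD, n = 8; log2 difference -2.14, standard error 0.06, adjusted p = 3.34e-17, limma). In shCON it was at 0.225, 0.398 and 0.516 and in shCEBPB at 0, 0.0714 and 0.205 FPKM. No shCEBPB library reached the lowest shCON library (two-sided exact permutation p = 0.000155), although both groups were under 1 FPKM. PTX3 shares 71 bp of its exons with VEPH1 on the other strand.

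C3 (chromosome 19, 6677704 to 6730562, minus strand) encodes the central component on which all complement pathways meet. It rose most of the members in shCEBPB. Its lowest, median and highest levels were 4.59, 4.91 and 5.32 FPKM in shCON and 101, 119 and 135 in shCEBPB. The mean rose 24.1-fold, to 119 ± 11.5 FPKM in shCEBPB (SD, n = 8) against 4.94 ± 0.240 in shCON (SD, n = 7; log2 difference 4.33, standard error 0.06, adjusted p = 4.58e-21, limma). The difference was 4.47 within library codes 1 to 3 and 4.24 within codes 4 to 8. In A2780 the levels were 2.14, 2.81 and 3.04 FPKM and in A2780 OlaR 4.70, 5.41 and 6.06, without overlap, and the OlaR mean was 1.98-fold higher (log2 difference 0.78, standard error 0.06, adjusted p = 9.16e-11, limma). This difference was 0.58 within codes 1 to 3 and 0.91 within codes 4 to 8, and the code ranges did not overlap within either group. C3 shares 1357 bp of its exons with a lncRNA on the same strand.

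CFB (chromosome 6, 31945650 to 31952086, plus strand) encodes complement factor B, the serine protease that joins C3b in the alternative pathway convertase. It was at 4.76, 5.05 and 5.48 FPKM (lowest, median, highest) in shCON and 6.81, 8.72 and 10.2 in shCEBPB. The rise was smaller than that of C3 but without overlap, 1.66-fold in the means (log2 difference 0.62, standard error 0.07, adjusted p = 1.89e-07, limma). In A2780 it was at 0.456, 0.712 and 0.865 and in A2780 OlaR at 3.90, 4.33 and 4.70 FPKM. The OlaR mean of 4.32 ± 0.249 FPKM (SD, n = 8) was 6.37-fold that of A2780 (0.678 ± 0.151, SD, n = 8; log2 difference 1.67, standard error 0.05, adjusted p = 1.26e-16, limma). CFB shares 2249 bp of its exons with a readthrough gene on the same strand and 24 bp with C2.

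SLPI and PI3 lie on chromosome 20 (45252239 to 45254564, minus strand, and 45174902 to 45176544, plus strand) and encode WAP domain inhibitors of neutrophil elastase that are secreted by mucosal epithelia. They went opposite ways in shCEBPB. SLPI was at 28.6, 34.6 and 45.6 FPKM (lowest, median, highest) in shCON and 59.7, 67.5 and 86.1 in shCEBPB, which was 1.94-fold higher in the means without overlap (log2 difference 0.94, standard error 0.10, adjusted p = 1.53e-07, limma). The difference was 1.24 within codes 1 to 3 and 0.75 within codes 4 to 8. PI3 was at 1.02, 1.84 and 2.85 FPKM in shCON and 0.0982, 0.608 and 1.23 in shCEBPB. Its groups overlapped, and its log2 difference was -0.78 (standard error 0.14, adjusted p = 5.93e-05, limma). In the A2780 comparison both were higher in OlaR. SLPI was at 0.0469, 0.180 and 0.480 FPKM in A2780 and 31.2, 36.7 and 42.7 in A2780 OlaR (166-fold in the means, log2 difference 4.97, standard error 0.07, adjusted p = 7.45e-22, limma). PI3 was listed at 0 in 7 of 8 A2780 libraries, with 0.0797 FPKM in the other, and was at 0.715, 1.92 and 2.27 in A2780 OlaR. It did not overlap between these groups (two-sided exact permutation p = 0.000155), but only 7 of 8 OlaR libraries reached 1 FPKM and it was left out of the test across genes.

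The plasma proteins HP (haptoglobin, chromosome 16, 72054505 to 72061055) and ORM1 (orosomucoid, chromosome 9, 114323098 to 114326479) were near 0 in all 4 groups. HP was above 0 in 9 of the 31 libraries, with at most 0.0887 FPKM, which was 1 or 2 steps, a step being the smallest increment of that gene's values. ORM1 was above 0 in 20 libraries, at 1 to 9 steps and at most 0.277 FPKM. In shCEBPB, 7 of 8 libraries were listed at 0 for either gene. The groups overlapped for both genes in both comparisons, with unadjusted exact permutation p (two-sided) of 0.18 for HP and 0.0182 for ORM1 in the C13* comparison, and 0.497 and 0.555 in the A2780 comparison. Both have near-identical neighbors (HPR and ORM2) that could share reads with them, and no difference was read from values of so few reads.

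**Figure D4:**
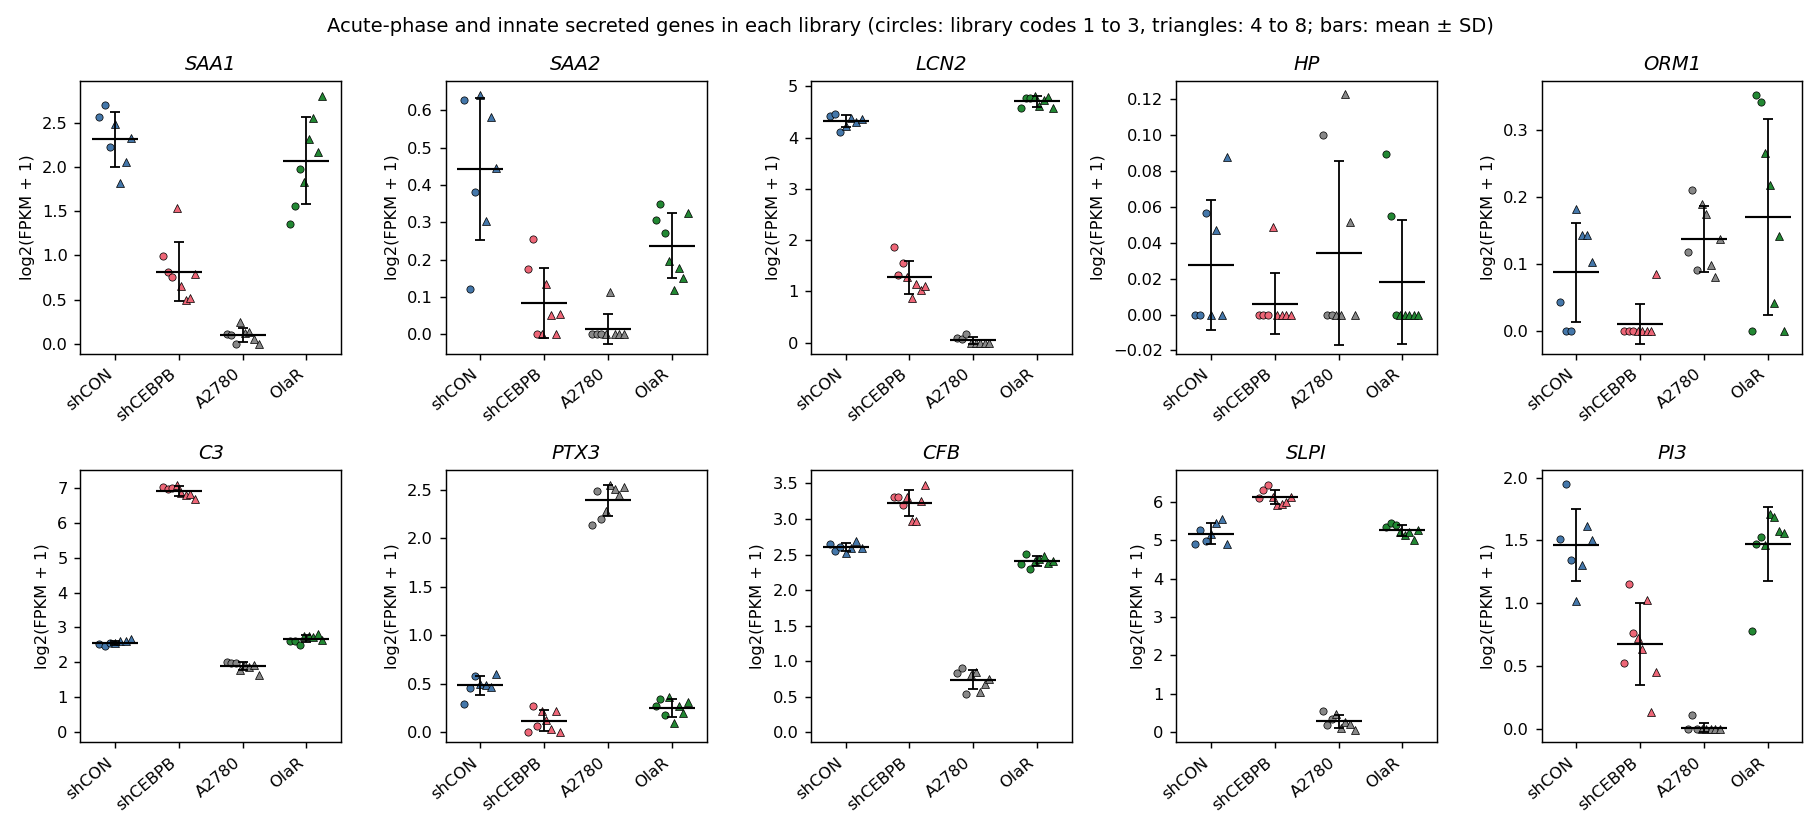
Levels of the 10 genes in each library as log2(FPKM + 1) on the vertical axis, by group, each gene on its own scale, with circles for library codes 1 to 3, triangles for codes 4 to 8 and bars for the mean ± SD. SAA1, LCN2 and PI3 are high in shCON and OlaR, C3, CFB and SLPI are highest in shCEBPB, PTX3 in A2780, and HP and ORM1 stay under 0.28 FPKM everywhere.

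The order of the 4 groups differed between members. In 1 fit of all 4 groups, 7 members could be tested, giving 21 pairs of neighbors in the order of levels, of which 17 differed at an adjusted p under 0.05. Over all genes in this fit, 37.7% were called between A2780 OlaR and shCON, 84.3% between shCEBPB and shCON, 84.8% between OlaR and shCEBPB, 87.6% between A2780 and shCON and 88% between A2780 and either OlaR or shCEBPB. The 4 pairs that did not differ beyond their spread were all OlaR against shCON: SAA1 (adjusted p = 0.261, limma), C3 (0.145), SLPI (0.541) and PI3 (0.970). For SAA1 the order was shCON and OlaR, then shCEBPB, then A2780. For LCN2 it was OlaR, shCON, shCEBPB and A2780, and OlaR was 1.32-fold above shCON without overlap (log2 difference 0.38, adjusted p = 0.00114, limma). C3 and SLPI had the order shCEBPB, then OlaR and shCON, then A2780. CFB was highest in shCEBPB and lowest in A2780, with shCON 1.18-fold above OlaR (log2 difference 0.19, adjusted p = 0.0154, limma). For PTX3 the order was A2780, shCON, OlaR and shCEBPB, with log2 differences of 1.91, 0.23 and 0.13 from each group to the next. For PI3 it was OlaR and shCON, then shCEBPB, then A2780. Several of these small steps depended on the setting. The steps of LCN2 and CFB between OlaR and shCON were not called with a pseudocount of 0.1 (adjusted p = 0.0728 and 0.0636, limma) or 0.01 (0.504 and 0.092), and that of CFB was not called within either range of library codes (0.0728 and 0.083). The step of PTX3 between shCON and OlaR was not called with a pseudocount of 0.01 (adjusted p = 0.0882, limma) or within codes 1 to 3 (0.171). That between OlaR and shCEBPB was not called with quantile normalization (adjusted p = 0.61, limma), within codes 1 to 3 (0.193) or within codes 4 to 8 (0.0599), so that the order of PTX3 below A2780 depended on the setting. Within library codes 1 to 3 the steps of SAA1 (adjusted p = 0.000521, limma) and SLPI (0.0214) were called.

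The genes whose levels followed each member most closely over the 31 libraries were named among 13125 genes with a group mean of at least 1 FPKM, as a description. Libraries of a group share their cells and preparation, and these values were set against each other across all 4 groups at once. The closest to SAA1 were RINL (Pearson's r = 0.957), ANKRD2 and STMN3. LCN2 was followed by FXYD3 (0.996), NALCN and JAG1, and C3 by DAB2 (0.998) and CHD4. PTX3 was followed by ANTXR2 (0.993), CALCRL and ALDH1A1. For CFB these genes were EPAS1 (0.992), KRT18 and GDA, for SLPI HENMT1 (0.997), OLR1 and BASP1, and for PI3 CEP250 (0.939), SCAMP2 and ADAMTS16. Among the members, CFB and SLPI had an r of 0.974 and SAA1 and LCN2 an r of 0.932, but after each value was set against its group mean these were 0.18 and 0.158. Within groups, the highest r of any pair of members was 0.428, of LCN2 and C3.

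Cytokines known to induce acute-phase genes differed widely between the groups. Whether they drive the members in these cells was not tested. The list of 10 genes held such cytokines and also IL1RN, which encodes the IL1 receptor antagonist. Of these genes, 5 were tested in the C13* comparison, with 1 higher and 4 lower in shCEBPB. The median log2 difference was -2.97, which was that of IL1RN, against -0.07 for all tested genes. All but LIF met the condition for the test only through the group in which they were high and so had to differ. The median of the list therefore cannot be weighed against that of all genes. Of all tested genes, 38.9% were called higher and 45.7% lower. IL6, the main inducer of the hepatic acute phase, was at 0.225 ± 0.0959 FPKM in shCON (SD, n = 7) and rose to 15.9 ± 1.02 in shCEBPB (SD, n = 8; log2 difference 3.79, adjusted p = 1.94e-20, limma). IL1A and IL1B, the IL1 cytokines that act through NF-kB, were at 209 ± 17.3 and 202 ± 14.5 FPKM in shCON (SD, n = 7) and fell to at most 0.149 and 0.0757 (log2 difference -7.63 for each). IL1RN, the receptor antagonist, fell as well (-2.97). In A2780 OlaR, IL1A, IL1B and IL1RN were higher than in A2780 (log2 differences 6.91, 6.85 and 3.27), while IL11, LIF and TNF were lower (-3.21, -1.70 and -0.92). These made 3 higher and 3 lower among the 6 tested, with a median of 1.17 against -0.12 for all tested genes. Here too all but LIF met the condition only through the group in which they were high. Of all tested genes, 40.1% were called higher and 49.7% lower in OlaR.

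The median log2 difference of the tested cytokine receptors was -0.14 in shCEBPB and -0.32 in OlaR. Of all tested genes, 38.9% were called higher and 45.7% lower in shCEBPB, and 40.1% higher and 49.7% lower in OlaR. In shCEBPB, 2 of 10 tested receptors were higher, 5 lower and 3 not called. LIFR, the LIF receptor, rose (log2 difference 1.83) and so did IL17RC (0.54), and the largest falls were in IL11RA (-1.19), OSMR (-0.73) and IL6R (-0.56), which encodes the ligand-binding chain of the IL6 receptor. In OlaR, 5 of 11 were higher, led by IL22RA1 (1.13), OSMR (0.89) and TNFRSF1A (0.36), and 6 were lower, led by IL1R1 (-1.13), IL11RA (-0.74) and IL6ST (-0.61). IL22RA1 met the condition for the test only through OlaR and IL1R1 only through A2780. Of 14 signalling genes between these receptors and the acute-phase promoters, 4 were higher, 9 lower and 1 not called in shCEBPB (median log2 difference -0.51). NFKBIA and SOCS3, feedback inhibitors that NF-kB and STAT3 themselves induce, fell from 141 to 40.8 FPKM and from 16.9 to 7.11 FPKM (log2 differences -1.77 and -1.14), and JAK2 fell too (-0.91). BCL3, RELB and JAK1 rose (1.19, 0.69 and 0.62). In OlaR, 8 were higher, 5 lower and 1 not called (median 0.39). MYD88, the adaptor of IL1 receptors, had a mean of 0.516 ± 0.0919 FPKM in A2780 (SD, n = 8) and one of 19.2 ± 0.727 in OlaR (SD, n = 8; log2 difference 3.73, adjusted p = 5.75e-24, limma). MYD88 met the condition for the test only through OlaR and so had to differ. NFKBIA (1.91) and STAT3 (1.48) were also higher, and RELB (-1.87), NFKB2 (-1.69) and JAK2 (-0.62) were lower.

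**Figure D5:**
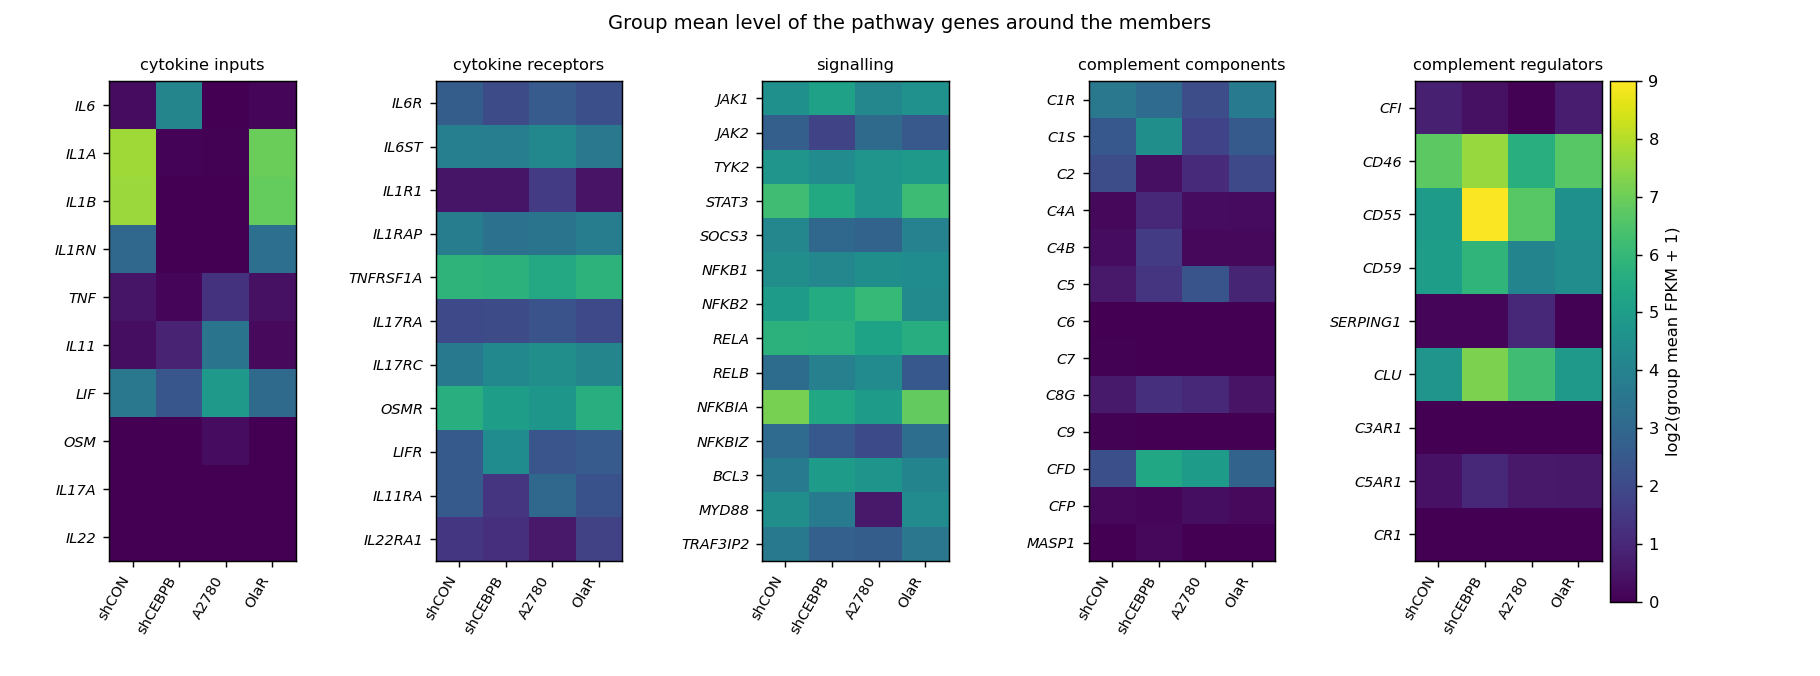
Group mean levels, as log2(mean FPKM + 1) by color from 0 to 9, of the cytokine, receptor, signalling and complement genes (rows) in the 4 groups (columns). IL1A and IL1B are bright in shCON and OlaR, IL6 in shCEBPB, and CD55 and CLU are brightest in shCEBPB.

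Complement genes other than C3 and CFB went both ways in shCEBPB, where 38.9% of all tested genes were called higher and 45.7% lower. Of 13 further components 7 were tested, and 5 were higher and 2 lower (median log2 difference 0.76). CFD, the protease that cuts factor B, was at 3.55 ± 0.685 FPKM in shCON (SD, n = 7) and rose to 40.6 ± 12.1 in shCEBPB (SD, n = 8; log2 difference 3.14, adjusted p = 7.70e-12, limma), and C1S (1.99) and C4B (1.26) rose too, C4B being a near-copy of C4A. C2 (-1.74) and C1R (-0.44) fell, C1R with groups that overlapped. C4B and C5 met the condition for the test only through shCEBPB and C2 only through shCON, so that all of these had to differ. C8G met it with 6 shCEBPB libraries and 1 shCON library. The difference of C5 was itself the median of 0.76, so that this median cannot be weighed against that of all genes. Of the 9 regulators and receptors reported here 4 were tested, and these 4 were higher (median 1.70). CD55, which speeds the decay of the convertases on the cell surface, rose from 29.7 to 487 FPKM (log2 difference 3.96), and CLU (2.53) and CD59 (0.86), inhibitors of the membrane attack complex, rose as well. In OlaR, C1R, C2 and C1S were higher than in A2780 (1.57, 0.93 and 0.74) and CFD and C5 lower (-2.08 and -1.44), all 5 of those tested (median 0.74). C2 reached 1 FPKM in every library only in OlaR, and C5 only in A2780. Among regulators, CD46 (0.99) and CD59 (0.35) were higher in OlaR, and CD55 and CLU were lower (-2.14 and -1.39), with 2 higher and 2 lower among those reported (median -0.52). The shares of all tested genes in OlaR were 40.1% higher and 49.7% lower.

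Other plasma proteins of the acute phase were nearly all too low to test, since 2 of 23 were tested in each comparison (median log2 differences 0.85 and 0.48). FGB, a fibrinogen chain, was higher in shCEBPB at 1.98 ± 0.307 FPKM (SD, n = 8), against a mean of 0.0235 in shCON (log2 difference 1.54, adjusted p = 4.40e-14, limma). It met the condition for the test only through shCEBPB and so had to differ. LRG1 was at 5.25 FPKM in shCON and 6.13 in shCEBPB and was not called (log2 difference 0.17, adjusted p = 0.168, limma). In OlaR, LRG1 was higher (log2 difference 3.33) and CP, ceruloplasmin, lower (-2.36), and each met the condition only through the group in which it was high. Of 18 other antimicrobial and antiprotease genes, 6 were tested in the C13* comparison, with 2 higher and 4 lower (median -1.81). All but CST3 met the condition only through the group in which they were high and so had to differ. The shares of all tested genes called were 38.9% higher and 45.7% lower. WFDC2, a WAP domain gene like SLPI and PI3 and a serum marker of ovarian cancer, had a mean of 39.9 ± 2.74 FPKM in shCON (SD, n = 7) and was at 0 in all 8 shCEBPB libraries. RNASE7 and CST6, products of squamous epithelia, fell as well (log2 differences -1.94 and -1.91), while SERPINB1, an intracellular elastase inhibitor, and LTF, lactoferrin, rose (5.46 and 1.11). In OlaR, WFDC2 (5.37) and CST3 (0.78) were higher and SERPINB1 lower (-5.49), the 3 that were tested (median 0.78). Of these, CST3 alone met the condition in both groups. All tested genes were called higher in 40.1% and lower in 49.7% of cases.

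Receptors and partners of the member proteins were also measured. Of 15 such genes 6 were tested in each comparison, with 4 higher and 2 lower in shCEBPB (median 1.72) and 1 higher and 5 lower in OlaR (median -1.30). The shares of all tested genes were 38.9% higher and 45.7% lower in shCEBPB, and 40.1% higher and 49.7% lower in OlaR. SLC22A17, a receptor for lipocalin 2, had a mean of 4.31 ± 0.580 FPKM in shCON (SD, n = 7), was listed at 0 in all 8 shCEBPB libraries, and was lower in OlaR than in A2780 (log2 difference -1.70). SCARB1, a receptor for HDL that binds serum amyloid A, rose from 21.0 to 113 FPKM in shCEBPB (2.37), as did FGF2 (2.06), a growth factor that PTX3 binds, and LRP1 (1.91). PLSCR1, a membrane protein that binds SLPI, fell in shCEBPB (-0.63) and was the gene that was higher in OlaR (1.26). FGF2 (-2.05) and PRTN3 (-1.84), which encodes the proteinase that elafin inhibits, were lower in OlaR. In the C13* comparison SLC22A17 and MMP9, a further gene that was higher in shCEBPB, met the condition only through the group in which they were high. The same held for PRTN3 in the A2780 comparison. The counts and medians of the list rest partly on these genes.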

How the data were processed

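Reads of 31 libraries were checked with FastQC, mapped to hg38 with TopHat and counted with HTSeq. The authors tested counts with the exact test of edgeR. FPKM per gene, as deposited by the authors in 1 table, were used. The tool and annotation behind them, and use of the strand, are not given in the sources used here, and without counts the count test was replaced by limma.

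Groups and replicate numbers came from the sample labels. Of 19225 entries, 4 with 2 repeated symbols were left out. FPKM carry no read totals, so the depth of libraries relative to each other was fitted from genes under 0.1 FPKM. The fit sought depths that put their values on whole multiples of a step. After it, 94.8% of the 6029 of these values with few steps were whole multiples (within 0.05 step). This share is an outcome of the fit and not a check of it. No interval for counting error can be given.

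Differences of log2(FPKM + 1) were fitted with limma 3.58.1 in R 4.3.3 (lmFit, then eBayes with a variance trend). Tests were two-sided, p-values were adjusted by Benjamini-Hochberg over all tested genes, and the threshold was 0.05. This scale understates the change of low genes. Each comparison used its own 2 groups and the genes at 1 FPKM or more in at least the number of libraries of its smaller group. The order of levels came from 1 fit of all 4 groups. Low members had exact permutation tests of the difference of mean log2(FPKM + 1), of which the p are not adjusted. The fit was tested on simulated data. Other steps used Python 3.11.15 (numpy 2.4.6, pandas 2.3.3 with scipy 1.17.1), with permutations enumerated in full, and figures used matplotlib 3.10.9. Positions and shared exons came from GENCODE 44 on hg38, which may differ from the annotation behind the FPKM.

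The members and gene lists were chosen with earlier results of these data known. Named were all members, the C/EBP family, at most the 3 largest rises and 3 largest falls among the called genes of each list in each comparison, and the 3 genes most like each member. Some genes are not reported here, and the list counts leave them out. Alternatives were pseudocounts of 0.1 and 0.01, no filter and a filter at 5 FPKM, a common sum, quantile normalization, replicate and library number blocks, the library code ranges 1 to 3 and 4 to 8, no variance trend, leaving out shCON replicate 1, and 1 fit of all 4 groups. Protein sequences were not used here.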

Additional observations from a re-analysis of the deposited data

Results flagged for a closer look

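In the 40 groups of libraries of the 10 genes, a library stood apart from the others of its group by Dixon's criterion in 7. The rate of about 1 in 20 that chance gives holds for continuous values and not for the 5 of these groups in which most libraries were listed at 0. SAA1 was at 1.897 FPKM in shCEBPB replicate 4, with the nearest shCEBPB library at 0.99. PI3 was at 0.7151 FPKM in A2780 OlaR replicate 1, below the nearest library at 1.76, and this library kept PI3 out of the test across genes in the A2780 comparison. LCN2 was at 0.1288 FPKM in A2780 replicate 3, with the nearest library at 0.0564 and 5 of 8 at 0. In 4 groups all other libraries were listed at 0, so that a lone value above 0 stands apart by construction, namely SAA2 in A2780 (replicate 5 at 0.082 FPKM), PI3 in A2780 (replicate 2 at 0.07969), HP in shCEBPB (replicate 4 at 0.03423) and ORM1 in shCEBPB (replicate 8 at 0.06107).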

How the results depend on the processing

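The 12 called differences of single members were computed under up to 13 alternatives each, 144 values in all, and all 144 kept their direction and their side of the threshold. SAA1 and PI3 in the C13* comparison, and all but C3 in the A2780 comparison, met the condition only through the group in which they were high. Their direction and call could therefore hardly change. In the C13* comparison the log2 difference lay between -2.44 and -1.25 for SAA1, -3.78 and -2.75 for LCN2, -1.71 and -0.54 for PI3, 4.24 and 4.58 for C3, 0.58 and 0.74 for CFB, and 0.75 and 1.24 for SLPI. In the A2780 comparison it lay between 1.56 and 5.89 for SAA1, 4.595 and 10.15 for LCN2, 0.58 and 0.997 for C3, -4.49 and -1.98 for PTX3, 1.63 and 2.68 for CFB, and 4.93 and 7.60 for SLPI. The counts of members called moved by more than 1.5 times with a filter at 5 FPKM, which left fewer members to test. The count in the A2780 comparison went from 6 to 2, and that of neighboring groups that differed from 17 to 10. Without a filter on low FPKM, 9 members were called in the C13* comparison (all but HP) and 8 in the A2780 comparison (all but HP and ORM1), where 12746 of 17334 and 13711 of 17638 genes in all were called. Without shCON replicate 1, the library with the conflicting label, 6 members were called as before. With the replicate number as a block, 9885 and 10960 of all genes were called in the C13* and A2780 comparisons, and 6 members in each. The numbers did not pair the libraries, since the deviations of same-numbered libraries from their group means had a mean r of -0.148 over 7 pairs and -0.233 over 8 pairs across genes. A common sum of FPKM moved the median of all genes in the A2780 comparison from -0.12 to -0.18, and quantile normalization to -0.03. HP and ORM1 lay at few steps. SAA2 was under 1 FPKM in all groups and PTX3 in all but A2780. This limits what the values of SAA2, HP, ORM1 and PTX3 can show.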
